A study of Mus musculus with 27 samples.

Results

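Sorted cells of the mouse periosteum, the thin cell layer on the bone surface, were compared between a fraction negative for both CD105 and CD200 (P2) and a fraction positive for CD105 with variable CD200 (P3). All 6 libraries labelled as these fractions were used, 3 of P2 and 3 of P3, out of 27 libraries in the series. Both groups came from the hindlimbs of Prx1-CreER/Ai14/Rag1 mice of both sexes aged 8 to 12 weeks, in which Cre under the Prx1 promoter is activated by tamoxifen and switches on the reporter tdTomato. The mice had received 2 injections of tamoxifen 48 h apart and were taken 3 days after the last one. Periosteum was scraped from femur and tibia and digested for 20 min, and tdTomato+ CD45- cells (labelled Prx1+) were sorted by CD105 and CD200. The reporter marks Prx1 cells and their progeny, and the Rag1 mutation that all mice carried leaves them without mature B and T lymphocytes. The same 2 fractions of bone marrow and of muscle, 3 libraries each, served for comparison. The submitters state that samples were taken from the same animals, but not which animal gave which library. The p-values below therefore measure the spread between libraries, taken over all 27 of the series and not over these 6 alone.

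CD105 is endoglin, encoded by Eng, a co-receptor for ligands of the TGF-beta and BMP family that is carried by endothelial cells, some stromal cells and early red cell precursors. CD200 is a membrane glycoprotein of stromal, endothelial and neural cells. The periosteum holds fibroblasts, osteoblast and cartilage precursors, vessels with their mural cells, and tendon insertions. Erythroblasts, the nucleated precursors of red cells, fill with globin RNA as they mature and can lack CD45, which other blood cells carry.

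The values were normalized counts, and the number of reads behind them was not known. Their sum per library was 13999786 to 24072005 in P2 and 9988963 to 11988767 in P3, and 12397 to 16586 entries were above 0. Globin RNA made up 24.0% to 38.5% of the sum in P2 and 1.44% to 2.07% in P3. Libraries of one fraction resembled each other less than those of the same fraction in the other tissues. The correlation across genes of log2 values was 0.631 to 0.672 in P2, against 0.767 to 0.828 in bone marrow P2 and 0.862 to 0.874 in muscle P2. In P3 it was 0.718 to 0.827, against 0.909 to 0.935 in bone marrow P3 and 0.947 to 0.955 in muscle P3. In a principal component analysis of the 6 libraries over 500 genes, the first component (53.5% of the variance) separated P2 from P3. The second (16.9%) set replicate 2 of both fractions apart from the other 4 libraries. Counts below are therefore also given without these 2 libraries.

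The sort genes differed in the direction of the gates. Eng was 66.7, 11.8 and 249 in the 3 P2 libraries and 6206, 7328 and 3763 in the 3 P3 libraries. The groups did not overlap, but Eng did not pass the test (log2 fold change of P2 over P3 -6.53, SE 2.09, adjusted p = 0.106). Cd200 was 52.8, 9.08 and 7.24 in P2 and 5554, 4326 and 3700 in P3, which did not overlap either. Its log2 fold change was -8.08 (SE 1.66, adjusted p = 0.00929), so Cd200 was higher in P3, whose gate did not select on CD200. This call was lost without P2 replicate 3, P3 replicate 1 or P3 replicate 3 (adjusted p 0.0526 to 0.0760). Ptprc, which encodes CD45, was 18.5, 32.0 and 184 in P2 and 4.20, 2.80 and 19.7 in P3, and the groups overlapped. Prrx1, the gene called Prx1 in the labels, was 2377, 64.0 and 302 in P2 and 1649, 2183 and 1153 in P3, also with overlap (adjusted p = 0.425). An entry that the table names only as transgenes was at 13598, 9235 and 13517 in P2 and 11165, 11837 and 6153 in P3 (adjusted p = 0.940). The table does not say which transgene it holds.

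**Figure D1:**
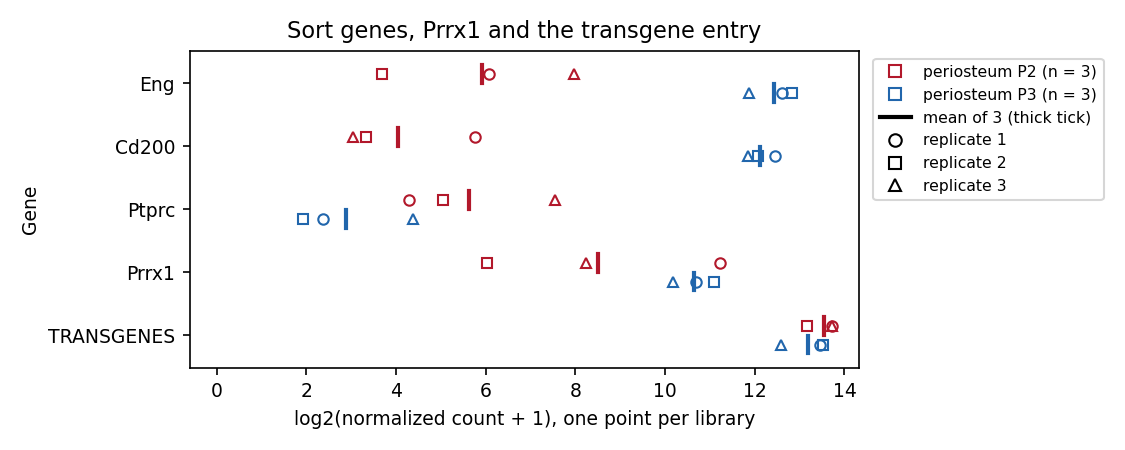
Values of the sort genes Eng and Cd200, of Ptprc and Prrx1, and of the transgene entry on the log2(normalized count + 1) axis, 1 point per library, with the mean of 3 as a thick tick. The P2 and P3 points of Eng and Cd200 are apart, with Eng at 11.8 to 249 in P2 and 3763 to 7328 in P3, while those of the other 3 entries overlap.

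Of 18443 genes tested, 395 (2.14%) differed at an adjusted p below 0.05 with an absolute log2 fold change above 1.5, and genes that met both are said here to be called, higher or lower. They were 58 genes higher in P2 (0.314%) and 337 higher in P3 (1.83%). The test was limma on log2(normalized count + 1), with a mean for each of 9 groups over all 27 libraries. Each group had a weight, since the periosteum libraries varied more than the others. The error of a gene was pooled over all 27, so its SE also holds its spread in the other groups. At an unadjusted p below 0.05 there were 2619 genes. The 3 P2 libraries lay above all 3 P3 libraries for 11.1% of the genes tested and below all 3 for 8.86%, together 19.9%, and 58 of the genes called in P2 and 307 of those called in P3 were among these. The number called rested on the model: it was 3157 (1436 higher in P2) with equal weights, 199 (72 higher in P2) with the 9 periosteum libraries alone, and 2, Fabp4 and Mfap4, both higher in P3, with the 6 libraries alone. It was 204 without P2 replicate 2, 144 without P2 replicate 3, 129 without P3 replicate 1, 141 without P3 replicate 3 and 304 without replicate 2 of both fractions. With every library scaled to the same total, which moved the median of all genes by -0.43 on the log2 scale, 29 genes were called in P2 and 720 in P3. Of 59 called genes named in the text, 9 stayed called with each of the 6 libraries left out in turn: Dnajc17 in P2, and Esam, Emcn, Ccl21a, Cxcl12, Tnmd, Mcam, Tgfb3 and Ifi47 in P3. In bulk RNA of sorted cells, fewer cells of a type and less RNA per cell cannot be told apart.

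**Figure D2:**
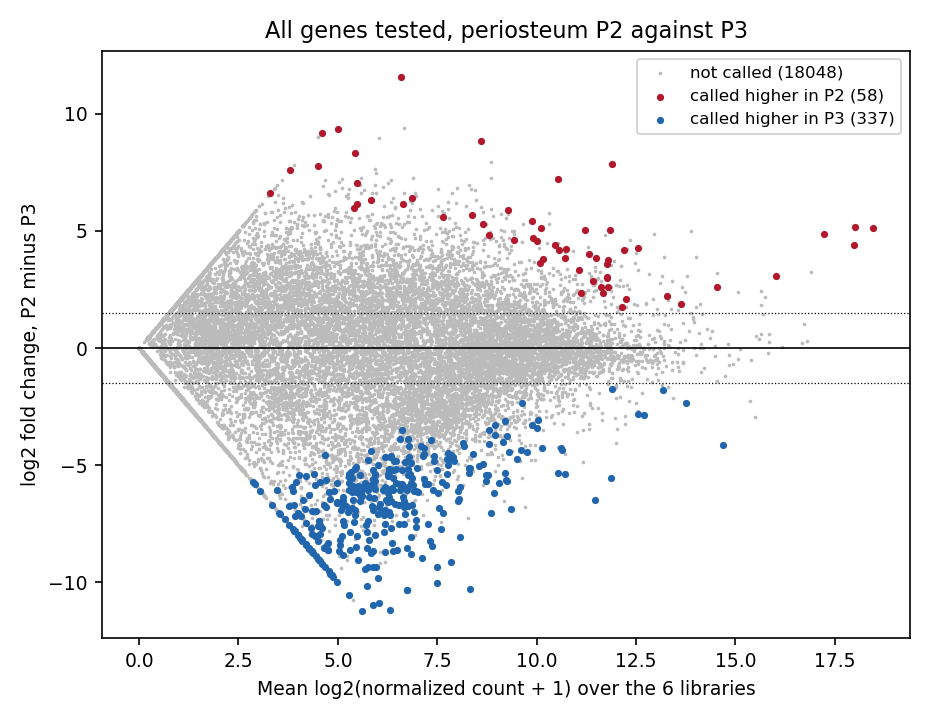
Log2 fold change of P2 over P3 against the mean log2(normalized count + 1) over the 6 libraries, 1 point per gene tested, with the 58 genes called in P2 in red, the 337 called in P3 in blue and dotted lines at a change of 1.5 either way. The genes called in P3 outnumber those called in P2.

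The genes with the largest changes toward P2 included several known from red cell precursors. Slfn14, which encodes a ribosome-associated endoribonuclease mutated in an inherited platelet disorder, was 3081, 8419 and 5542 in P2 and 0, 0.867 and 1.84 in P3 (adjusted p = 0.00620). Tmcc2, a coiled-coil membrane protein gene of late erythroblasts, was 45164, 72746 and 57374 in P2 and 1366, 12.4 and 846 in P3 (log2 fold change 7.84, SE 1.84, adjusted p = 0.0207). Fam46c, which encodes a poly(A) polymerase, was 5019, 68913 and 17887 in P2 and 381, 14.99 and 297 in P3 (7.23, SE 1.61, adjusted p = 0.0149). That every P2 library lay above every P3 library in these genes follows from how they were picked. Apol11b, an apolipoprotein L gene, was 3627, 19438 and 7930 in P2 and 2.48, 2.85 and 433 in P3 (8.84, SE 2.35, adjusted p = 0.0444).

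Other genes of this group of 10 had lower levels. Dnajc17, which encodes a J-domain protein linked to splicing, was 563, 455 and 149 in P2 and 0, 0 and 2.55 in P3 (log2 fold change 7.79, SE 1.5, adjusted p = 0.00522). It lies at 119172500 to 119208795 on chromosome 2. Its call held with each of the 6 libraries left out (adjusted p 0.00435 to 0.0450). Cdc25c, the phosphatase that activates Cdk1 at entry into mitosis, was 616, 872 and 359 in P2 and listed at 0 in all P3 libraries. Prdx6b, a peroxiredoxin-related entry, was 115, 246 and 258 in P2 and likewise at 0 in P3. Prokr1, a receptor for prokineticins, was 474, 941 and 1210 in P2 and at most 0.995 in P3. Prss50, a serine protease gene, was 446, 2269 and 464 in P2 and 0, 0 and 12.8 in P3. Folds against values this near to 0 depend on the pseudocount of 1. Of the 10 calls, 6 were lost without P2 replicate 1, 7 without P2 replicate 2, 9 without P2 replicate 3, 7 without P3 replicate 1, 1 without P3 replicate 2 and 4 without P3 replicate 3.

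The adult globin genes were higher in P2. Hbb-bs, an adult beta chain gene, was 922600, 2538710 and 1688810 in P2 and 48066, 38643 and 45340 in P3 (log2 fold change 5.17, SE 1.09, adjusted p = 0.0101). The other 3 adult chains were also higher in P2, at log2 fold changes of 4.41 for Hba-a1 (SE 1.09, adjusted p = 0.0287), 5.12 for Hba-a2 (SE 1.17, adjusted p = 0.0176) and 4.86 for Hbb-bt (SE 1.23, adjusted p = 0.0337). The 4 adult genes were the called ones among 6 globins tested, against 0.314% of all genes tested called in P2. They had P2 above P3 in all libraries (11.1% of all genes tested), and the 2 embryonic genes Hbb-y and Hba-x overlapped between groups. Reads of the near-identical Hba-a1 and Hba-a2, and of the paired beta genes, may have been divided between copies in counting. All 4 calls were lost without P2 replicate 3, P3 replicate 1 or P3 replicate 3, 3 of the 4 without P2 replicate 2, and 2 without P2 replicate 1. With quantile normalization none of the 4 was called, and the median of the 6 globins tested was 2.34 in place of 4.63. With the same total per library 2 of the 4 were called, Hba-a2 and Hbb-bs. With replicate 2 of both fractions left out, Hbb-bs was called higher in P2 (adjusted p = 0.0386) and the embryonic Hbb-y higher in P3 (log2 fold change -5.70, SE 1.48, adjusted p = 0.0499). Hbb-y was 0, 317 and 0 in P2 and 49.0, 0 and 53.3 in P3, a log2 fold change of -1.03 with all libraries (adjusted p = 0.892). Within P2 the globin level was lowest in replicate 1 and highest in replicate 2.

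The promoters of Hbb-bs and Alas2, the erythroid enzyme that starts haem synthesis, are shown as examples of the control regions of this group, since both hold letters known from erythroid gene control. The lines give the 250 bases before the RefSeq start of each gene (GRCm38.p6), for Hbb-bs at chr7:103827929-103828178 on the minus strand and for Alas2 at chrX:150547167-150547416 on the plus strand. Capitals mark AGATAA, the letters bound by GATA factors, on either strand (TTATCT on the other one), and CACACCC, the letters of a Klf1-type CACCC box.
Hbb-bs: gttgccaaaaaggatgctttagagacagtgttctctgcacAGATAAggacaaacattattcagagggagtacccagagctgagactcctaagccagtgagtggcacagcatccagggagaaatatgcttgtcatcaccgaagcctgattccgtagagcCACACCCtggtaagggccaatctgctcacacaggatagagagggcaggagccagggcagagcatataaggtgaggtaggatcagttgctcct
Alas2: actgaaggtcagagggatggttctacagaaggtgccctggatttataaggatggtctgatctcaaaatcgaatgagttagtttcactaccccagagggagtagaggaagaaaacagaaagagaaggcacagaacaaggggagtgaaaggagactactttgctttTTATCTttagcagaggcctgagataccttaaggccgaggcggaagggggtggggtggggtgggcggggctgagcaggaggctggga
In Hbb-bs, AGATAA begins 210 bases and CACACCC 92 bases before the start, and in Alas2 the GATA letters lie on the other strand from 86 bases before it. Of 22 named genes of the 5 red cell lists, 15 had a promoter in the table, of which 5 held AGATAA and 3 CACACCC on either strand. Over all genes tested the shares were 8.13% and 8.88% of 12608 promoters. Among the genes called in P2 as a whole, 5 of 44 promoters (11.4%) held AGATAA and 3 (6.82%) CACACCC. Among the genes called in P3 the numbers were 16 (6.64%) and 23 (9.54%) of 241. The E2F letters TTCCCGC were in 2 of the 44 and TTGGCGC in none, against 7.15% and 3.66% of all.

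Most haem and iron genes were separated in the same direction as the globins. Alas2 was 22700, 77296 and 45101 in P2 and 1500, 1090 and 1855 in P3 without overlap, but was not called (log2 fold change 4.89, SE 1.76, adjusted p = 0.167). Slc25a37, the mitochondrial iron importer, was higher in P2, at 16183, 41665 and 28049 against 1458, 1057 and 1636 (4.29, SE 1.10, adjusted p = 0.0368). Fech, which inserts iron into the ring of haem, was also higher in P2, at 10637, 21699 and 9744 against 1003, 682 and 1306 (3.76, SE 0.84, adjusted p = 0.0152). These were the 2 called of 15 genes tested, and 12 of the 15 had every P2 library above every P3 library. The shares were 0.314% and 11.1% of all genes tested. Tfrc, the transferrin receptor, was 6982, 18873 and 21738 in P2 and 1289, 575 and 1705 in P3 (adjusted p = 0.30). The calls of Slc25a37 and Fech were both lost without P2 replicate 2 or 3 and without P3 replicate 1 or 3, and that of Slc25a37 also without P2 replicate 1. Without replicate 2 of both fractions none of the list was called (median 1.66), and with the same total per library Fech alone was.

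Genes of the red cell membrane were separated in the same direction without a call (10 at an unadjusted p below 0.05). Of 17 tested, 13 had P2 above P3 in all libraries, against 11.1% of all genes tested. The median log2 fold change was 3.91, against a median of 0 over all genes tested. Slc4a1, the anion exchanger band 3, was 37159, 114948 and 61084 in P2 and 3304, 3748 and 6361 in P3 (adjusted p = 0.146). Kel and Rhd, which encode blood group proteins, lay between 10239 and 29865 in P2 and between 302 and 2760 in P3.

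Of 14 genes of late erythroblasts, 13 had P2 above P3 in all libraries and 4 were called, against 11.1% and 0.314% of all genes tested. Bpgm, the enzyme that makes the 2,3-bisphosphoglycerate of red cells, was 4089, 20389 and 12641 in P2 and 667, 1076 and 355 in P3 (log2 fold change 4.0, SE 0.91, adjusted p = 0.0167). The others were Isg20, an exonuclease (3.87, SE 0.92, adjusted p = 0.0236), Ube2l6, a ubiquitin-conjugating enzyme (5.03, SE 1.21, adjusted p = 0.0244), and Mxi1, a repressor in the Myc network (6.17, SE 1.46, adjusted p = 0.0224). Without P2 replicate 3 all 4 calls were lost, 3 without P2 replicate 2, and 2 each without P2 replicate 1 or P3 replicate 3, while without P3 replicate 1 the call of Ube2l6 was the one that held. Without replicate 2 of both fractions 1 of the list was called (median 3.23), and with the same total per library Mxi1 alone was (median 3.41). Car2, a carbonic anhydrase that other cells also make, was 72014, 194136 and 121597 in P2 and 18882, 26763 and 20953 in P3 (adjusted p = 0.350). The member that lay the other way was Car1, the red cell carbonic anhydrase, with all P3 libraries above all P2 libraries and no call.

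Erythroid transcription factors were less uniform. None of 16 tested was called, with 5 at an unadjusted p below 0.05. Of the 16, 7 had P2 above P3 in all libraries (11.1% of all genes tested), 1 the reverse (8.86%) and 8 overlapped. Their median log2 fold change was 2.27. Nfe2, a factor of globin and platelet genes, was 5480, 8894 and 7090 in P2 and 773, 208 and 185 in P3 (adjusted p = 0.156). Gata1, the main factor of the red cell lineage, was 1530, 7311 and 2397 in P2 and 1841, 0.810 and 899 in P3, with overlap. Klf1, an activator of the adult beta chain, was 16.9, 5814 and 1363 in P2 and 2022, 2430 and 1628 in P3, again with overlap. Hemgn, a nuclear factor of erythroblasts, was 14900, 41973 and 16530 against 1421, 4306 and 2412 (adjusted p = 0.428). Red cell RNA was thus measured in P3 too: the summed level of the 15 haem and iron genes was 22426 to 27731 there and 115515 to 301823 in P2.

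Of 28 mitosis and 26 DNA replication genes, 1 was called, higher in P2. Of the mitosis genes, 21 had P2 above P3 in all libraries (11.1% of all genes tested), none the reverse (8.86%). Their median log2 fold change was 2.79. One was called: Nusap1, a spindle protein gene, at 2878, 8612 and 4456 in P2 and 104, 9.51 and 478 in P3 (5.89, SE 1.46, adjusted p = 0.0296), and this call held only without P3 replicate 3 when libraries were left out. Mki67, a marker of cycling cells, was 7187, 12263 and 13076 in P2 and 1377, 1332 and 2228 in P3 (adjusted p = 0.405). Top2a, the topoisomerase of condensing chromosomes, was 13880, 9184 and 6498 against 849, 306 and 2273 (adjusted p = 0.296). Ube2c, an enzyme of mitotic exit, was 9157, 16190 and 13628 against 692, 1026 and 1820 (adjusted p = 0.0934). Of 26 replication genes, 7 had P2 above P3 in all libraries, 1 the reverse and 18 overlapped, with a median of 0.98 and no call (2 at an unadjusted p below 0.05). Rrm2, a ribonucleotide reductase subunit, was 9500, 22740 and 10915 in P2 and 3498, 3096 and 3981 in P3 (adjusted p = 0.533). Mcm7, a helicase subunit, was 2131, 5633 and 2727 against 1891, 4181 and 1663. Without replicate 2 of both fractions no mitosis gene was called and the median was 2.21. The globins and the mitosis list were high in the same 3 libraries, and the part of red cell precursors in the mitosis genes was not tested.

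**Figure D3:**
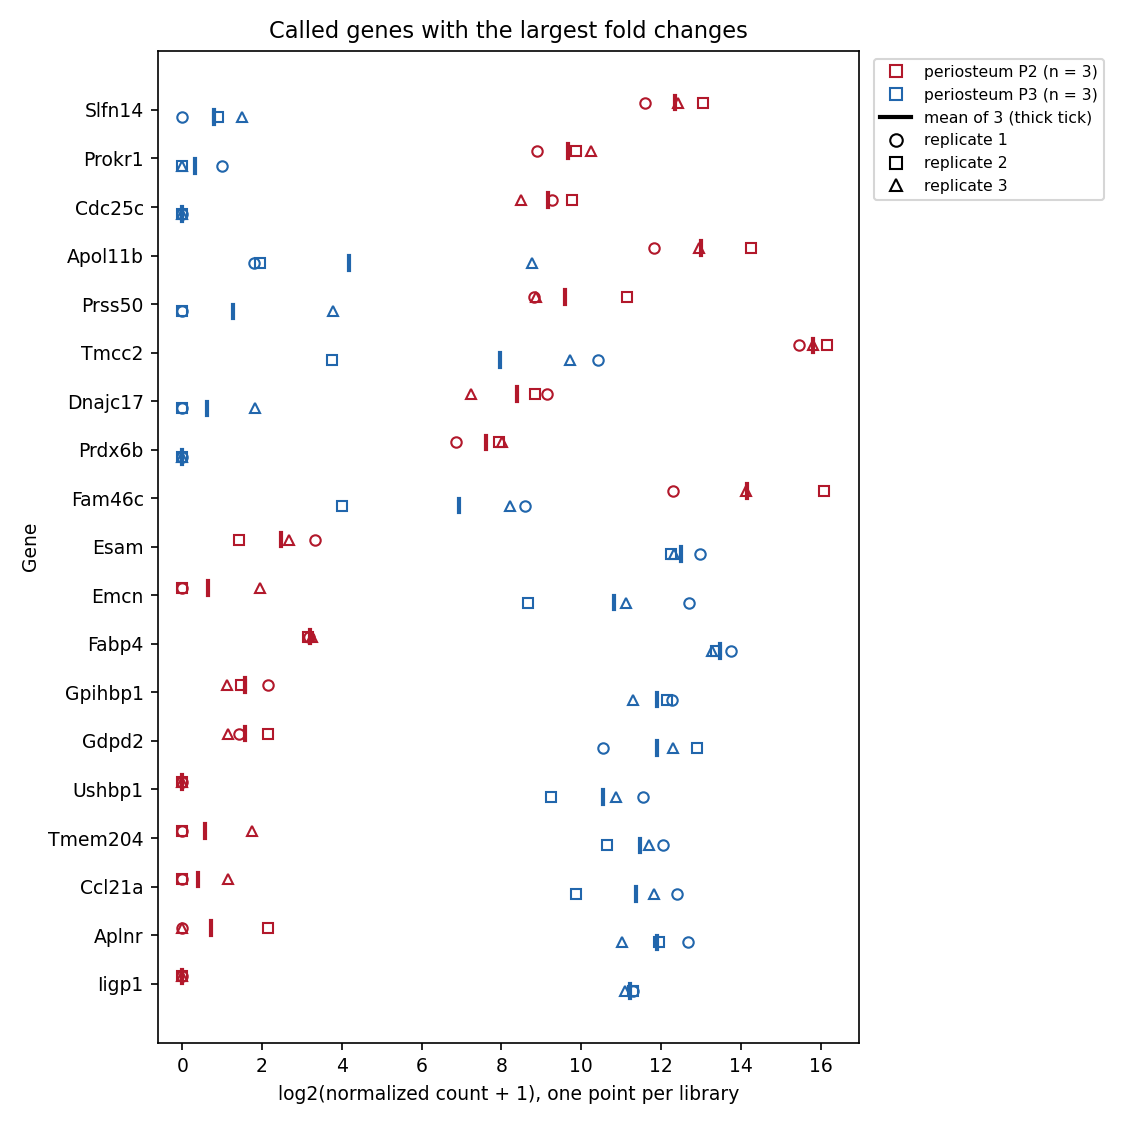
Called genes with the largest log2 fold changes among those whose groups did not overlap, 9 higher in P2 and 10 higher in P3, on the log2(normalized count + 1) axis, 1 point per library, with the mean of 3 as a thick tick. The upper 9 genes are near 0 to about 10 in P3 and at 7 to 16 in P2, and the lower 10 are at 0 to about 3 in P2 and at 8 to 14 in P3.

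Endothelial genes made up the list with the most calls in P3. Of 22 tested, 8 were called higher in P3, against 1.83% of all genes tested. Every P3 library lay above every P2 library for 19 of them, against 8.86% of all, and the median log2 fold change was -7.13. Esam, an adhesion molecule of endothelial junctions at 37528078 to 37538319 on chromosome 9, was 9.01, 1.69 and 5.43 in P2 and 8062, 4856 and 5083 in P3 (log2 fold change -10.03, SE 1.27, adjusted p = 8.68e-05). Emcn, the sialomucin endomucin of capillaries and veins, was 0, 0 and 2.89 in P2 and 6627, 405 and 2213 in P3 (-10.17, SE 1.67, adjusted p = 0.00136). Both stayed called with each library left out in turn, at adjusted p values up to 0.00297 and 0.0270. Fabp4, a fatty acid carrier of capillaries and fat cells, was 7.98, 7.91 and 8.55 in P2 and 13920, 10581 and 9903 in P3 (-10.28, SE 2.71, adjusted p = 0.0429).

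The remaining called endothelial genes covered junctions and receptors. Pecam1 (CD31) was 144, 565 and 200 in P2 and 8136, 4691 and 3176 in P3 (log2 fold change -4.28, SE 1.0, adjusted p = 0.0202). Cdh5, the cadherin of endothelial junctions, was 1.68, 15.5 and 1.21 against 2092, 1567 and 950 (-8.31, SE 1.74, adjusted p = 0.0100). Cldn5, a claudin of tight junctions, was listed at 0 in all P2 libraries and was 1104, 886 and 1014 in P3. Tie1, a receptor tyrosine kinase, changed by -7.03 (SE 1.51, adjusted p = 0.0117), and Egfl7, a secreted factor of vessels, by -8.65 (SE 1.79, adjusted p = 0.00964). Flt1, a VEGF receptor, was 92.2, 160 and 105 in P2 and 6927, 6340 and 3642 in P3 without a call (adjusted p = 0.356). The summed level of the list was 1312 to 2533 in P2 and 49331 to 85436 in P3, so P2 was not free of these transcripts, although 5 to 7 of the 22 genes were at 0 in each P2 library. Of the 8 calls, 3 were lost without P2 replicate 1, 1 without P2 replicate 2, 5 without P2 replicate 3, 6 without P3 replicate 1 and 5 without P3 replicate 3. Without replicate 2 of both fractions 7 of the list were called (median -6.90).

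With Esam, Emcn and Fabp4, the 10 genes with the largest changes toward P3 included other genes known from vessels. Aplnr, the apelin receptor, was 0, 3.43 and 0 in P2 and 6543, 3970 and 2094 in P3 (adjusted p = 0.0267). Gpihbp1, which carries lipoprotein lipase across capillaries, was 3.43, 1.76 and 1.17 against 4922, 4526 and 2523 (log2 fold change -10.33, SE 2.29, adjusted p = 0.0147). Tmem204, a membrane protein of endothelial cells, was 0, 0 and 2.36 against 4251, 1605 and 3331. Ushbp1 was listed at 0 in P2 and was 3017, 605 and 1871 in P3. That the groups of these 4 genes did not overlap follows from how the 10 were picked.

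The other 3 genes of that group have different known roles. Ccl21a, a chemokine of lymphatic endothelium and lymphoid stroma, was 0, 0 and 1.22 in P2 and 5375, 940 and 3611 in P3 (adjusted p = 0.00370). Reads of Ccl21a may be shared with its near-identical copies. Iigp1, an interferon-inducible GTPase, was listed at 0 in P2 and was 2510, 2515 and 2180 in P3. Gdpd2, a phosphodiesterase gene of osteoblasts, was 1.67, 3.41 and 1.21 in P2 and 1497, 7587 and 5007 in P3 (log2 fold change -10.34, SE 2.0, adjusted p = 0.00522). Of the 10 calls, 7 were lost without P2 replicate 3, 5 each without P3 replicate 1 or P3 replicate 3, 2 without P2 replicate 1 and 1 without P2 replicate 2.

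Mural cell genes had fewer calls. Of 14 tested, 1 was called and 6 had P3 above P2 in all libraries, against 1.83% and 8.86% of all genes tested. The median log2 fold change was -3.83. Mcam (CD146), an adhesion molecule of pericytes and endothelial cells at 44134469 to 44142727 on chromosome 9, was 1.52, 1.47 and 1.09 in P2 and 2520, 1200 and 1131 in P3 (-9.33, SE 1.70, adjusted p = 0.00319). It stayed called with each library left out (adjusted p up to 0.0400). Acta2, smooth muscle actin, was 124, 27.6 and 13.4 in P2 and 2622, 1619 and 2316 in P3 (adjusted p = 0.269), and Pdgfrb, the PDGF receptor of pericytes and fibroblasts, 675, 165 and 2165 against 2816, 5305 and 4307 (adjusted p = 0.278). Cspg4, the pericyte proteoglycan NG2, was 1540, 5718 and 4318 in P2 and 58.0, 1953 and 556 in P3, with overlap.

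Of 14 genes by which marrow stroma sustains blood cells, 4 were higher in P3. Cxcl12, the chemokine that holds stem and progenitor cells in marrow, was 449, 702 and 526 in P2 and 14272, 38432 and 30393 in P3 (log2 fold change -5.54, SE 0.92, adjusted p = 0.00156). The gene, at 117168535 to 117181367 on chromosome 6, stayed called with each library left out (adjusted p 0.00201 to 0.0209). Vcam1, an adhesion molecule, was 46.9, 48.1 and 0 in P2 and 1446, 4243 and 3709 in P3 (-7.74, SE 1.40, adjusted p = 0.00297). Kitl, which encodes stem cell factor, was 48.3, 4.93 and 0 against 666, 1273 and 601 (-6.91, SE 1.31, adjusted p = 0.00436), and Adipoq, which encodes adiponectin, was at most 1.71 in P2 and 977, 1250 and 1970 in P3 (-9.44, SE 1.91, adjusted p = 0.00771). In the list, 6 had P3 above P2 in all libraries (8.86% of all genes tested, with 1.83% called in P3). The median was -4.22. The calls of Vcam1, Kitl and Adipoq were lost without P2 replicate 3, and that of Adipoq also without P3 replicate 3. Without replicate 2 of both fractions 4 were called. Lepr, the leptin receptor that marks marrow stroma, was 415, 211 and 239 in P2 and 1643, 387 and 3058 in P3, with overlap (adjusted p = 0.481).

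Of 20 osteoblast genes, 4 were higher in P3. Col1a1, the main collagen chain of bone, was 5699, 4942 and 8924 in P2 and 45531, 193629 and 157734 in P3 (log2 fold change -4.14, SE 1.09, adjusted p = 0.0430). Its call was lost with any of the 6 libraries left out (adjusted p 0.0595 to 0.177). Ibsp, bone sialoprotein, was 548, 1014 and 47.4 against 25608, 24803 and 29677 (-6.47, SE 1.25, adjusted p = 0.00524), and lost its call without P2 replicate 3 (adjusted p = 0.0881). Ifitm5, a membrane protein of mineralizing osteoblasts (-5.82, SE 1.33, adjusted p = 0.0179), and Serpinf1, which encodes the secreted factor PEDF (-2.83, SE 0.63, adjusted p = 0.0146), were also higher in P3. Ifitm5 lost its call without P2 replicate 1, P2 replicate 2 or P3 replicate 1, and Serpinf1 without P2 replicate 2, P2 replicate 3, P3 replicate 1 or P3 replicate 3. In the list 6 genes had P3 above P2 in all libraries, 1 the reverse and 13 overlapped, and the median was -1.33. Of all genes tested, 8.86% had P3 above P2, 11.1% the reverse, and 1.83% were called in P3. The gene that lay the other way was Pth1r, the parathyroid hormone receptor, at 1303, 2252 and 1097 in P2 and 0, 0 and 24.3 in P3, with the largest change of the list and no call (8.98, SE 5.04, adjusted p = 0.442). Without replicate 2 of both fractions 1 was called (median -1.88). Sparc, a collagen-binding matrix protein, was 51133, 74846 and 106567 in P2 and 51861, 95422 and 77790 in P3, with a log2 fold change of 0.03 (SE 0.39). Spp1, osteopontin, was 4027, 49732 and 57692 against 22937, 61881 and 37801 (adjusted p = 0.956).

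Most cartilage genes had all P2 libraries above all P3 libraries, without a call. Col2a1, the main collagen of cartilage, was 240598, 374590 and 590511 in P2 and 12002, 62110 and 83882 in P3 (log2 fold change 3.24, SE 2.39, adjusted p = 0.616). Of 20 tested, 17 were of this kind (11.1% of all genes tested), 1 the reverse (8.86%), and the median was 3.19. At an unadjusted p below 0.05 there were 8. Col9a3, a chain of the collagen on the surface of cartilage fibrils, was 48488, 148460 and 85315 in P2 and 819, 2780 and 8291 in P3 (adjusted p = 0.612). Col11a1, a chain inside those fibrils, was 18956, 33329 and 40170 against 1533, 8013 and 5420 (adjusted p = 0.320), and Comp, a cartilage and tendon matrix protein, 14414, 38674 and 50291 against 7838, 6620 and 14367 (adjusted p = 0.463). The summed list took 3.16% to 5.32% of the normalized counts in P2 and 0.536% to 1.57% in P3. P3 was therefore not free of cartilage transcripts either.

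Of 10 tendon and 22 fibrous matrix genes, 1 each was called, against 1.83% of all genes tested called in P3. Tnmd, tenomodulin of mature tendon cells at 133850980 to 133865577 on chromosome X, was 6.75, 5.20 and 2.44 in P2 and 1562, 5197 and 1751 in P3 (log2 fold change -8.79, SE 1.30, adjusted p = 0.000453). It was the 1 called of 10 tendon genes and stayed called with each library left out (adjusted p up to 0.00884), and the median of the list was -3.63. Of the 10, 4 had P3 above P2 in all libraries (8.86% of all genes tested) and 6 overlapped. Thbs4, a thrombospondin of tendon, was 1019, 18.6 and 3987 against 14174, 10708 and 12782 (adjusted p = 0.0910). Of 22 fibrous matrix genes, Lox, the enzyme that cross-links collagen, was called, at 27.1, 290 and 616 in P2 and 3058, 4606 and 3027 in P3 (-4.35, SE 1.02, adjusted p = 0.0203). That call was lost without P2 replicate 1, P3 replicate 1 or P3 replicate 3. Of the 22, 7 had P3 above P2 in all libraries, 2 the reverse (11.1% of all genes tested) and 13 overlapped. Fn1, fibronectin, was 48028, 182643 and 181492 in P2 and 20594, 26341 and 30372 in P3 (adjusted p = 0.223), while Fmod, a collagen-binding proteoglycan, overlapped with a log2 fold change of -0.05. Postn, periostin of the periosteum, was 88.5, 17.9 and 7.11 in P2 and 150, 3446 and 7784 in P3 (adjusted p = 0.107).

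Most markers of fibroblasts around vessels overlapped between the fractions, as did most genes tested. Of 15 tested, 14 overlapped and none was called, with 1 at an unadjusted p below 0.05. Of all genes tested, 19.9% did not overlap and 2.14% were called, so the list did not stand out from them. The P2 libraries differed among themselves: the summed level of the list was 238823 in replicate 1, 57559 in replicate 2 and 124734 in replicate 3, against 184640 to 256705 in P3. As a share of the normalized counts, whose total in P2 holds the globins, these were 1.71%, 0.239% and 0.660% against 1.83% to 2.14%, without overlap. Gsn, gelsolin, was 134334, 28498 and 69920 in P2 and 31595, 97981 and 50248 in P3, and Ly6a (Sca-1), a surface marker of progenitors, 22832, 2274 and 3276 against 14252, 12787 and 9417. Gpx3, a secreted peroxidase, was the member without overlap, at 12916, 16049 and 34095 against 91637, 90715 and 95324 (adjusted p = 0.113). Among 14 markers used for periosteal progenitors, Mcam and Cd200 were called higher in P3, but P2 was sorted as CD200-, so the level of Cd200 follows from the gate. Of the 12 that are neither a sort antigen nor the driver gene Prrx1, Mcam was called, against 1.83% of all genes tested called in P3. P3 lay above P2 in all libraries for 5 of them (8.86% of all genes tested), 7 overlapped, and the median was -1.88. Nt5e (CD73) was 1022, 5663 and 3280 in P2 and 648, 11.7 and 1145 in P3, with overlap.

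**Figure D4:**
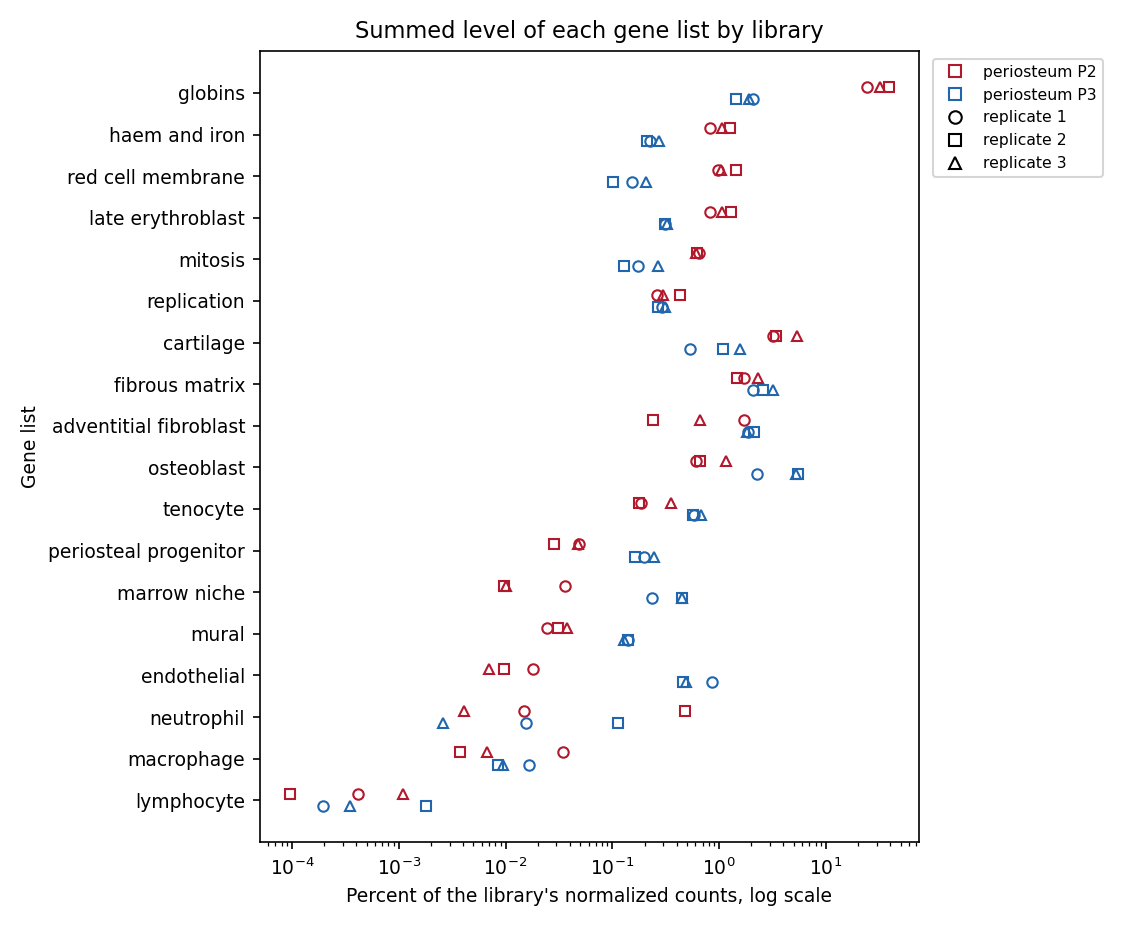
Summed level of 18 gene lists as a percent of each library's normalized counts, on a log axis, 1 point per library and list. Globins lie at 24.0% to 38.5% in P2 and 1.44% to 2.07% in P3, the endothelial list lies lower in all P2 libraries than in all P3 libraries, and the neutrophil list is highest in P2 replicate 2.

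Among genes of the TGF-beta and BMP pathway, to which the sort marker CD105 belongs, 2 were called higher in P3. Most of the others overlapped between the fractions, as did most genes tested, of which 19.9% did not overlap. Tgfb3, a ligand at 86056745 to 86079041 on chromosome 12, was 597, 12.03 and 81.3 in P2 and 3925, 5266 and 3708 in P3 (log2 fold change -5.62, SE 1.03, adjusted p = 0.00332), and stayed called with each library left out (adjusted p up to 0.0322). It was the 1 called of 19 ligands and antagonists, of which 4 had P3 above P2 in all libraries, 1 the reverse and 14 overlapped. Among all genes tested, 8.86% had P3 above P2, 11.1% the reverse, and 1.83% were called in P3. None of 12 receptors was called, and besides Eng, whose level follows from the sort, 4 of 11 had P3 above P2 in all libraries, 7 overlapped and 3 were at an unadjusted p below 0.05. Acvrl1, the type I receptor of endothelial cells, was 270, 0 and 232 in P2 and 1255, 2634 and 972 in P3 (adjusted p = 0.189). Tgfbr2, the type II receptor, was 2944, 11.3 and 3385 against 3430, 3906 and 3476 (adjusted p = 0.345), so that replicate 2 alone was low in P2.

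Of 18 targets and transducers, Bambi, a pseudoreceptor that dampens the signal, was called. It was 6.70, 1.72 and 1049 in P2 and 1643, 1615 and 1509 in P3 (log2 fold change -5.83, SE 1.48, adjusted p = 0.0349), and the call was lost without P2 replicate 1, P2 replicate 2, P3 replicate 1 or P3 replicate 3. Id3, an inhibitor of helix-loop-helix factors that BMPs induce, was 3544, 2017 and 2482 in P2 and 10361, 15426 and 13939 in P3 without a call (adjusted p = 0.159). Ctgf, a matricellular protein that TGF-beta induces, lay the other way, at 15526, 29592 and 33074 in P2 and 6939, 12363 and 10762 in P3 (adjusted p = 0.463). Of these 18, 5 had P3 above P2 in all libraries (8.86% of all genes tested), 1 the reverse (11.1%) and 12 overlapped. The median over them was -1.76, over the receptors without Eng -1.05 and over the ligands -2.19.

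Genes of CD45+ blood cells were not called in either fraction. None of 16 neutrophil, 13 macrophage, 9 osteoclast, 11 lymphocyte, 10 megakaryocyte and 5 mast cell genes passed, with 2, 1, 1, 0, 0 and 0 at an unadjusted p below 0.05. Single libraries stood out. The summed neutrophil list was 116436 in P2 replicate 2 against 264 to 13545 in the other 5 libraries. S100a8, a granulocyte calcium-binding protein, was 349, 34147 and 139 in P2 and 576, 1.72 and 0.504 in P3, and Ngp, a neutrophil granule protein, 3.34, 27041 and 1.21 against 225, 0.858 and 0. Mmp9, a gelatinase of neutrophils and osteoclasts, was 12783 in P3 replicate 2 and at most 195 in the other 5. The part of these cells in the results that change without replicate 2 was not tested. The 12 lymphocyte genes summed to 19.7 to 217.

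Schwann cell, muscle fibre and immediate early genes gave no call (1 of 10, 1 of 12 and 1 of 14 at an unadjusted p below 0.05). The immediate early genes, which cell isolation can induce, summed to 124579 to 157774 in P2 and 119355 to 141335 in P3, with overlap. As a share of the normalized counts, whose total in P2 holds the globins, they were 0.618% to 0.890% and 1.18% to 1.21%. Dusp1, a phosphatase of this class, was 25208, 23730 and 20984 in P2 and 11422, 1568 and 2078 in P3, and Btg2, an antiproliferative gene, 17951, 20519 and 19012 against 6265, 7354 and 4715 (adjusted p = 0.287). Fos lay the other way, at 23451, 23162 and 27761 against 28011, 51149 and 42938. Y-linked genes were read in all 6 libraries, and Ddx3y was 109 to 3188.

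The same fractions were compared in bone marrow and muscle. In bone marrow 20.4% of genes were called higher in P2 and 9% higher in P3, and in muscle 9.41% and 13.5%, from libraries that agreed more closely. Of the 58 genes called in periosteal P2, 45 were also called in bone marrow P2 and 24 in muscle P2, and 1 and 0 were called the other way. Of the 337 called in periosteal P3, 153 were also called in bone marrow P3 and 138 in muscle P3, and 7 and 26 the other way. The difference between fractions itself was not the same as in bone marrow for 85 genes (0.461%) and not the same as in muscle for 833 (4.52%). Against bone marrow the periosteal difference was the more positive for 30 genes (0.163%) and the more negative for 55 (0.298%), and against muscle for 156 (0.846%) and 677 (3.67%). The first total was 26 without P2 replicate 3, 12 without P3 replicate 1 and 27 without P3 replicate 3 of periosteum, and the second 429, 366 and 402.

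The 4 adult globins were higher in P2 of all 3 tissues. Their log2 fold changes were 4.41 to 5.17 in periosteum, 4.34 to 4.96 in bone marrow and 2.68 to 3.23 in muscle, and none differed from periosteum in the test of the difference (adjusted p at least 0.291). Endothelial genes were called higher in P3 in all 3, with 8 of 22 in periosteum, 16 in bone marrow and 17 in muscle, and medians of -7.13, -3.96 and -4.50. The difference was tested gene by gene, and it was larger in periosteum than in both other tissues for Esam, by 7.92 against bone marrow (SE 1.43, adjusted p = 0.00869) and by 5.50 against muscle (SE 1.39, adjusted p = 0.0222). Cxcl12 was higher in P3 in all 3, with log2 fold changes of -5.54, -5.30 and -2.87.

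Some genes parted the fractions of periosteum and not those of another tissue. Tnmd was 6.14 ± 5.66 (SD, n = 3) in bone marrow P2 and 3.38 ± 2.76 in P3, and its periosteal difference was the more negative by 9.42 (adjusted p = 0.00201). Muscle Tnmd was 182 ± 128 in P2 and 1835 ± 240 in P3, and periosteum was the more negative by 5.18 (adjusted p = 0.0349). Tgfb3 was 1714 ± 412 in muscle P2 and 1686 ± 100 in P3, so that the periosteal difference was the more negative by 5.62 (adjusted p = 0.00402). Ccl21a was 24.6 ± 17.5 in bone marrow P2 and 0.911 ± 1.58 in P3, the opposite order to periosteum, while in muscle it was 60.7 ± 96.8 and 4706 ± 1021.

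Among cartilage and matrix genes, some changes differed between the tissues. The cartilage median was 3.19 in periosteum, 1.52 in bone marrow and -2.13 in muscle, and for 5 of the 20 the periosteal difference was the more positive against muscle. Of these, Col11a1 differed by 7.62 (SE 1.45, adjusted p = 0.00280) and Comp by 5.64 (SE 1.11, adjusted p = 0.00342). Sparc, at a log2 fold change of 0.03 in periosteum, was 534 ± 81.4 in bone marrow P2 and 14398 ± 2706 in P3, a difference from periosteum of 4.77 (SE 0.43, adjusted p = 6.81e-07). Both in bone marrow and in muscle Ctgf was higher in P3, and its periosteal difference was the more positive by 6.48 (adjusted p = 0.000682) and by 3.09 (adjusted p = 0.0363). The median of all genes for the difference was -0.59 against bone marrow, and 41 genes were the more positive and 31 the more negative with libraries scaled to the same total, against 30 and 55 with the values as deposited.

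**Figure D5:**
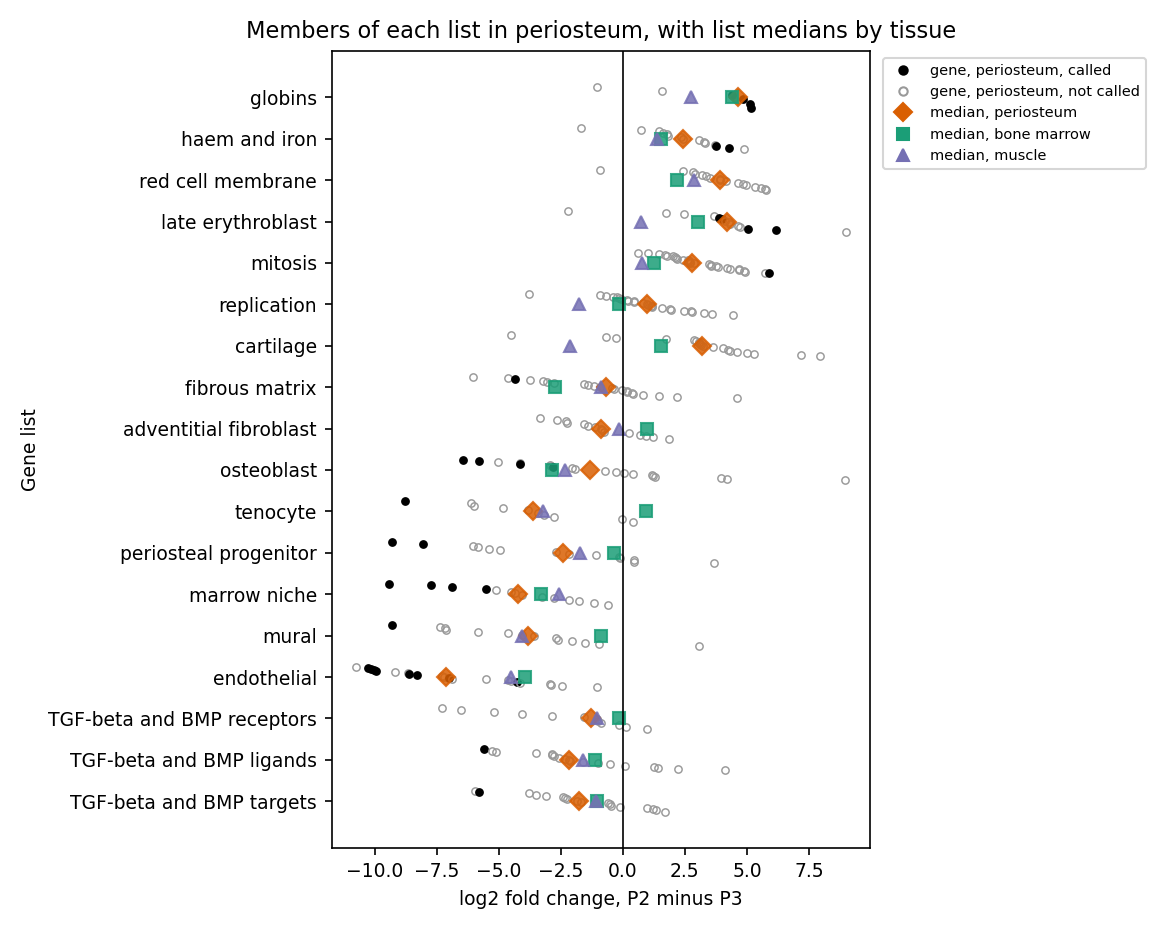
Log2 fold changes of P2 over P3 of the members of 18 gene lists in periosteum, 1 circle per gene, filled where called, with the list median in periosteum, bone marrow and muscle. Red cell and mitosis medians lie above 0 in periosteum and endothelial, mural and niche medians below it, and the cartilage median is above 0 in periosteum and below it in muscle.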

How the data were processed

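RNA of tdTomato+ CD45- cells was amplified with a SMART-Seq v4 kit and made into Nextera XT libraries. Per their methods, the authors trimmed reads with Trim Galore, aligned them with STAR and handled counts with DESeq2. The deposited table holds normalized counts, a signal value per gene and library that is not whole. Build, annotation and counting tool are not given in the sources used here. Whole reads could not be recovered, so counting error could not be estimated apart from the spread between libraries and no read-based test was made. How the values were scaled is not stated beyond this, and the sums per library differ.

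Of 30154 entries, 18443 had at least 10 in at least 3 of 27 libraries and were tested with limma 3.58.1 in R 4.3.3 (lmFit, eBayes with trend) on log2(value + 1), a pseudocount of 1. The fit had 9 group means, 1 weight per group from arrayWeights, and Benjamini-Hochberg adjustment over all genes. The authors' thresholds for differential expression were used. Fold changes are on the log2(value + 1) scale, which understates changes of low genes. The fit was tested on simulated data. Groups and replicate numbers came from the labels.

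Genes named were the sort genes and the transgene entry, the 10 largest called changes each way without overlap (no Gm, Rik or pseudogene names), the 4 members of each list with the highest mean, Mki67 and Top2a, and called genes of the TGF-beta and BMP lists. Of a list, other called members, and any further gene, were named after their values were seen. A few genes that this rule selects are not reported here. Members and gene lists were chosen with earlier results of these data known, so their directions are no independent evidence. Alternatives were pseudocounts of 0.1 and 5, 3 other filters, other weights, the 9 or 6 periosteum libraries alone, no trend, a replicate block, 3 other scalings, the adjusted p alone and each library left out. Leaving out replicate 2 of both fractions was chosen after seeing the data. Gene positions come from GENCODE M21 (GRCm38), which holds 29732 of the identifiers. Promoters are RefSeq's (GRCm38.p6). Python 3.11.15, pandas 2.3.3 and matplotlib 3.10.9 made summaries and figures. The 9 P1 libraries entered the fit but are not described, and the imaging and transplantation data were not used here.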

Additional observations from a re-analysis of the deposited data

Results flagged for a closer look

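The difference between P2 and P3 was tested against that in the other tissues with an interaction term, and it was not the same for 85 genes in bone marrow and 833 in muscle. All values here are on the log2(value + 1) scale, and those of genes near 0 in a group depend on the pseudocount.

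Among the genes with the largest changes toward P2, the periosteal difference was the more positive by 9.02 against muscle for Prokr1, by 14.54 against bone marrow and 8.94 against muscle for Prss50, and by 8.16 and 7.77 for Dnajc17. For Prdx6b it was the more positive by 8.6 and for Fam46c by 6.90, both against muscle. Prss50 lay the other way in bone marrow, at 7.32 ± 8.07 (SD, n = 3) in P2 and 425 ± 246 in P3. In muscle Dnajc17 was 67.1 ± 15.4 in P2 and 66.0 ± 15.4 in P3.

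Among the genes with the largest changes toward P3, the periosteal difference was the more negative for Iigp1 (-8.50 against muscle), Ccl21a (-14.77 against bone marrow), Emcn (-6.38 against muscle) and Esam (-7.92 against bone marrow and -5.50 against muscle). With 3 libraries in each group, no test for a library far from the others was made.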

How the results depend on the processing

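The 395 genes called between periosteal P2 and P3 became 600 without a filter, 209 with a mean of at least 50, 3157 with equal weights, 199 with the 9 periosteum libraries alone, 2 with the 6 libraries alone and 749 with the same total per library, and ranged from 129 to 567 with each of the 6 libraries left out. By splits, 1436 of the 3157, 72 of the 199 and 29 of the 749 were higher in P2. The other settings gave 264 to 575. The 85 genes that differed from bone marrow became 254 without a filter, 41 with a mean of at least 50, 955 with equal weights and 151 with quantile normalization (99 the more positive), and 12 to 150 with libraries left out. The 833 that differed from muscle became 543 with a mean of at least 50, 2224 with equal weights, 680 with the same total without globins (235 the more positive, against 156), and 366 to 1103 with libraries left out. The replicate block gave 419, 58 and 772. Libraries with the same number deviated together by a correlation of 0.0157, 0.0284 and 0.0169, and those with other numbers by -0.0192 to 0.0040. The former were all the higher, but all were near 0. Whether the numbers pair the libraries was not settled, and the main fit had no block. Of 59 called genes named, none reversed in 22 alternatives, 59 were called with equal weights, 31 with the 9 libraries alone and 1 with the 6 alone. Of 100 named genes not called, 41 were called with equal weights and 32 changed sign in some alternative. The causes were not tested. Reads per library were unknown, so no limit of detection can be given.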

Other observations

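Among other genes, chosen after their values were seen, those that present antigen on MHC class I lay higher in P3. Of 12 tested, 5 were called higher in P3 and 9 had all P3 libraries above all P2 libraries, none the reverse. The shares of all genes tested were 1.83%, 8.86% and 11.1%. The median log2 fold change was -3.28. H2-D1, a class I heavy chain, was 7850, 4500 and 6544 in P2 and 26674, 39704 and 28006 in P3 (-2.33, SE 0.54, adjusted p = 0.0180). B2m, the light chain, was 3338, 9654 and 3866 against 16872, 22772 and 13378 (-1.79, SE 0.48, adjusted p = 0.0451). Psmb8 and Psmb10, subunits of the immunoproteasome, and Tap2, a peptide transporter, were the other called genes. Without P2 replicate 3, P3 replicate 1 or P3 replicate 3, 4 of the 5 calls were lost, 3 were without P2 replicate 1 or P2 replicate 2, and 1 without P3 replicate 2. H2 genes resemble each other, and their reads may have been divided between copies.

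Interferon-inducible GTPases, which act against intracellular microbes, were on the same side. Of 12, 3 were called higher in P3 (1.83% of all genes tested), 6 had P3 above P2 in all libraries (8.86%) and 6 overlapped. Ifi47 was listed at 0 in P2 and was 174, 439 and 514 in P3, and it stayed called with each library left out in turn (adjusted p 0.00172 to 0.0224). Igtp was 8.29, 185 and 0 in P2 and 1447, 483 and 400 in P3 (-5.77, SE 1.29, adjusted p = 0.0157). Without P2 replicate 3 the calls of Igtp and Iigp1 were lost, and that of Igtp also without P3 replicate 1 or P3 replicate 3.

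Genes that remove peroxides were divided. Gpx1, a glutathione peroxidase, was 115645, 290795 and 209632 in P2 and 21537, 19946 and 27231 in P3 (3.08, SE 0.59, adjusted p = 0.00522), and Prdx2, the peroxiredoxin of red cells, 35565, 100958 and 56807 against 7580, 11781 and 10330 (2.60, SE 0.54, adjusted p = 0.00990). Both calls were lost without P2 replicate 3, and that of Prdx2 also without P2 replicate 2, P3 replicate 1 or P3 replicate 3. The other 10 of this group were not called. Of the 12, 3 had P2 above P3 in all libraries (11.1% of all genes tested) and 6 overlapped. The reverse held for 3 (8.86%), which were Gpx3, Prdx1 and Prdx5. The median was 0.25, and 0.314% of all genes tested were called in P2.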
